A study of Mus musculus with 9 samples.

Results

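The cell cycle genes described here number 40, in bulk RNA from mouse brain: 11 genes of DNA replication (Mcm2 to Mcm7, Pcna, Rrm1, Rrm2, Tyms and Uhrf1), 22 genes of mitosis, and 7 regulators of G1 and the checkpoints. They were a named list, chosen for their textbook roles with no threshold on a measured value, but with earlier results of these data known. Each gene's transcripts were summed. All 40 had more than 3 counts and passed the low-count filter, among 25292 genes with at least 1 count, of which 17398 were tested.

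Brain pieces holding thalamus, hypothalamus and midbrain came from untreated mice aged 7.5 months, 3 PG9VN, 3 PG9V and 3 wild type (WT), each library from a separate mouse. PG9VN and PG9V are mutant mice made to model the neuronopathic form of Gaucher disease, a disorder of lysosomal lipid breakdown. As background that the labels do not state, PG9VN and PG9V mice alike lack progranulin (Grn), which WT mice have; the other changes these lines carry are not described here. The labels give no alleles, strain background, sex or litter, and strain background cannot be told apart from genotype.

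A dividing cell copies its DNA and then separates the copies. Cyclins switch on cyclin-dependent kinases, E2F transcription factors then turn on replication genes, and a later programme read through CHR and CCAAT promoter elements turns on the mitotic genes. In the adult brain most neurons have left the cycle for good, and the cells that still divide include oligodendrocyte precursors (OPC), microglia, vascular cells and progenitors of small germinal zones. In a bulk sample, fewer or more dividing cells and less or more RNA per cell cannot be told apart.

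Grn, the check of the labels, averaged 4.16 ± 0.567 CPM in PG9VN, 3.89 ± 1.15 CPM in PG9V and 50.1 ± 4.76 CPM in WT (CPM, counts scaled to TMM library sizes; SD, n = 3 each). Libraries held 27150311 to 35349014 estimated counts, so 3 counts correspond to 0.0849 to 0.111 CPM, and such floors cover counting error alone. PG9VN replicate 2 stood apart. Its 10 hypothalamic peptide genes summed to 9.74 CPM, against 376 and 543 CPM in the other PG9VN libraries, and its 6 cortex and hippocampus markers to 384 CPM, against 91.4 and 105 CPM. Cerebellar markers summed to 346 CPM in PG9V replicate 3, above 26.7 to 127 CPM in the other libraries. WT replicate 1 and PG9V replicate 2 had 13 and 8 counts of the Y-linked gene Ddx3y, against 1173 to 2466 in the others, so these libraries were also left out together.

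Some of the 40 cell cycle genes were higher in PG9VN than in WT brain, among them genes of replication, mitosis and G1. Of the 40 genes, 14 rose (edgeR quasi-likelihood test, Benjamini-Hochberg adjusted p below 0.05) and 0 fell, where 11.5% of all genes tested were called higher and 7.22% lower. Bub1, among the 14, passed the low-count filter through PG9VN libraries alone, and without it 13 of 39 rose (33.3%). At an unadjusted p below 0.05 the counts were 24 higher and 0 lower, against 18.7% and 14.3% of all genes tested. The PG9VN libraries all lay above the WT libraries for 22 of the 40 genes and all below for 0, against 20.3% and 17.2% of all genes tested. The median log2 fold change of the 40 was 0.54, against 0.02 over all genes tested, and single genes ran from -0.27 (Ccne1) to 2.24 (Cdk1). In PG9V against WT 0 of the 40 passed, and in PG9VN against PG9V 5 rose. Without PG9VN replicate 2 the count against WT was 15, without PG9VN replicate 3 it was 9, and without WT replicate 1 and PG9V replicate 2 together it was 9.

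**Figure D1:**
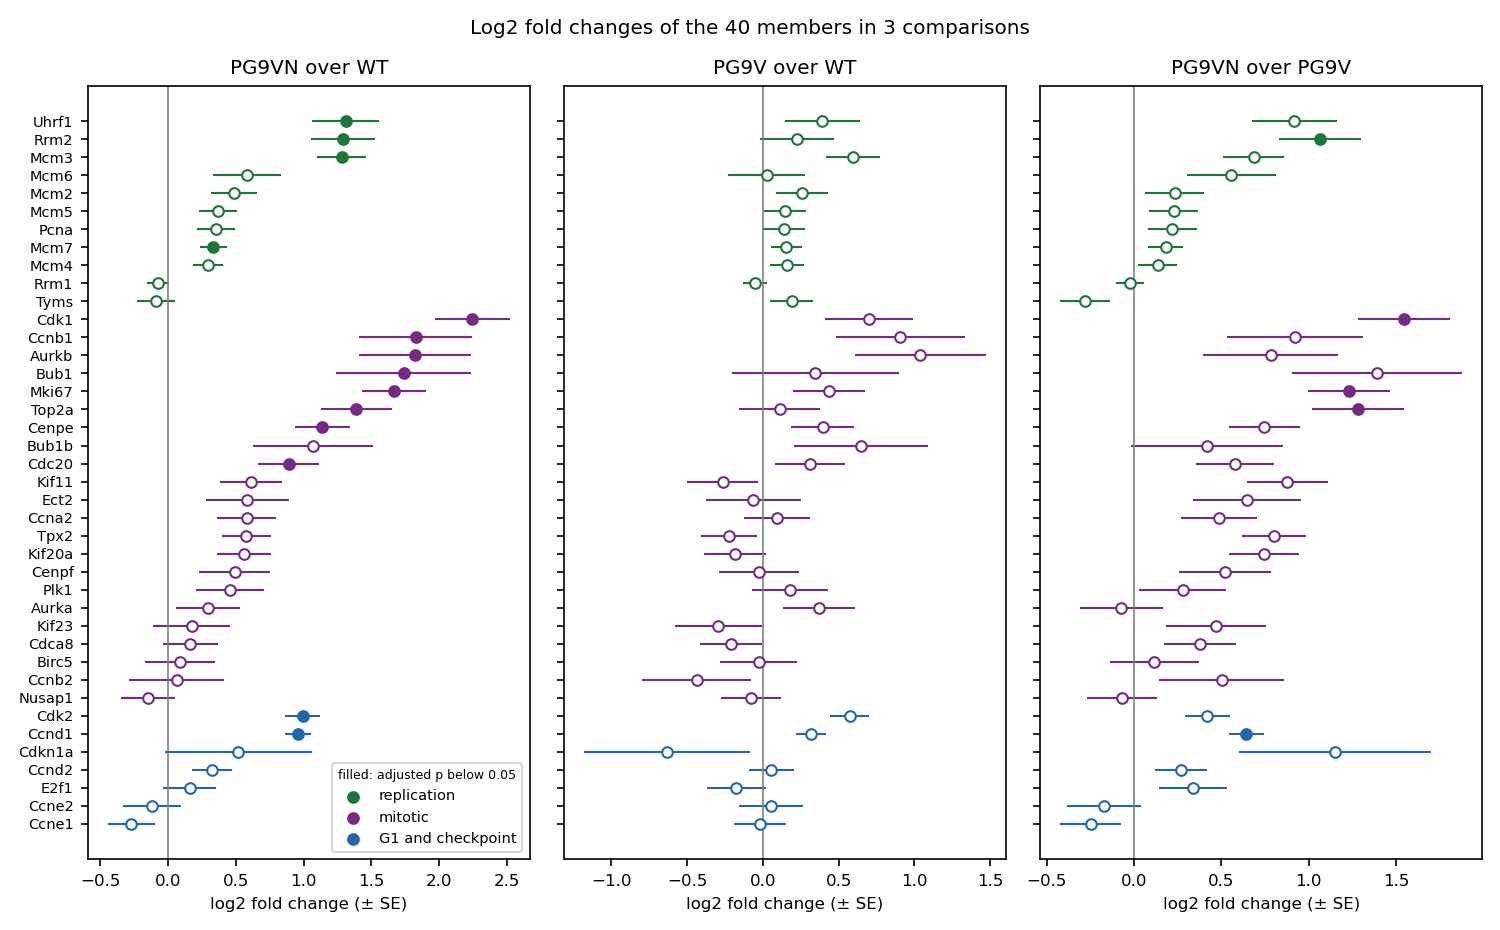
Log2 fold changes of the 40 cell cycle genes with their standard errors, in PG9VN over WT, PG9V over WT and PG9VN over PG9V from left to right, coloured by class. Filled points passed an adjusted p of 0.05: 14 genes in PG9VN over WT, 0 in PG9V over WT and 5 in PG9VN over PG9V.

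The classes differ in the letters of their promoters, and 6 promoters are shown to make that visible. RefSeq promoter windows of 250 bases before to 50 after each start, of build GRCm38.p6, matched 32 of the 40 genes. Each was searched on both strands for E2F letters (TTTGGCGC, TTTCGCGC, TTTCCCGC and TTTGCCGC), for the CHR (TTTGAA) and for the CCAAT box (CCAAT). The 160 bases before the start are printed below in the gene's direction, with matches in capitals; a match on the other strand reads as its reverse complement, and overlapping matches run together. Mcm6 lies at chr1:128359706-128359865 (- strand), Mcm5 at chr8:75109349-75109508 (+ strand), Cdk1 at chr10:69352913-69353072 (- strand), Cdc20 at chr4:118437344-118437503 (- strand), Mki67 at chr7:135716380-135716539 (- strand) and Top2a at chr11:99024190-99024349 (- strand).
Mcm6: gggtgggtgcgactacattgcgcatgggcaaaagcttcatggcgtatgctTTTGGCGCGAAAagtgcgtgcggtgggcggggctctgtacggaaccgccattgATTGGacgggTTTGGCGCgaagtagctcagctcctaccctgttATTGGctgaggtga
Mcm5: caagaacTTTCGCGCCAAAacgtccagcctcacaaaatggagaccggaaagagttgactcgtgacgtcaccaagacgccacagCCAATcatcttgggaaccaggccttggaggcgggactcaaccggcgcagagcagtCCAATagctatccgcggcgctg
Cdk1: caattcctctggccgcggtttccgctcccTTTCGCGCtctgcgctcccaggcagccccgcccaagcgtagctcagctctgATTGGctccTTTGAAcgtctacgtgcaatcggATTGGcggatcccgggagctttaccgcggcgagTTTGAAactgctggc
Cdc20: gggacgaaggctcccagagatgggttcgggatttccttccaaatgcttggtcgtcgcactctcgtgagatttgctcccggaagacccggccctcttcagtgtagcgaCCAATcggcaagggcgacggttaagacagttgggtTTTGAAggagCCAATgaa
Mki67: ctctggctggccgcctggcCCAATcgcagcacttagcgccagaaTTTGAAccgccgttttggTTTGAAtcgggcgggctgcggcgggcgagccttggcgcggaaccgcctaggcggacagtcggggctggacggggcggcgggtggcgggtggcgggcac
Top2a: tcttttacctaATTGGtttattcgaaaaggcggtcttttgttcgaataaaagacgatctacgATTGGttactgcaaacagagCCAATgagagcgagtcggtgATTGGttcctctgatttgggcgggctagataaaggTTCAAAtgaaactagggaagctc
Mcm6 and Mcm5, subunits of the replicative helicase, hold E2F letters and CCAAT boxes with no CHR here. Cdc20, Mki67 and Top2a hold CHR and CCAAT letters with no E2F letters, and Cdk1, the kinase that starts mitosis, holds all 3.

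Over the full windows, E2F letters occurred in 5 of 10 replication promoters (Mcm3, Mcm5, Mcm6, Mcm7 and Uhrf1), 1 of 18 mitotic promoters (5.56%, Cdk1) and 2.6% of 27025 genes with a window. The CHR occurred in 13 of 18 mitotic promoters (72.2%), 1 of 10 replication promoters (Mcm2) and 20.2% of all. The CCAAT box was common to both classes, at 16 of 18 mitotic promoters (88.9%), 9 of 10 replication promoters and 41.1% of all. CHR and CCAAT box together were in 13 of 18 mitotic promoters and 7.97% of all. Among genes that rose in PG9VN over WT, E2F letters were in 5 of 12 promoters (41.7%) and the CHR in 4 of 12 (33.3%). Among genes that did not pass, these were in 2 of 20 and 10 of 20. These letters describe the windows, and a window without them may hold other sites.

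**Figure D2:**
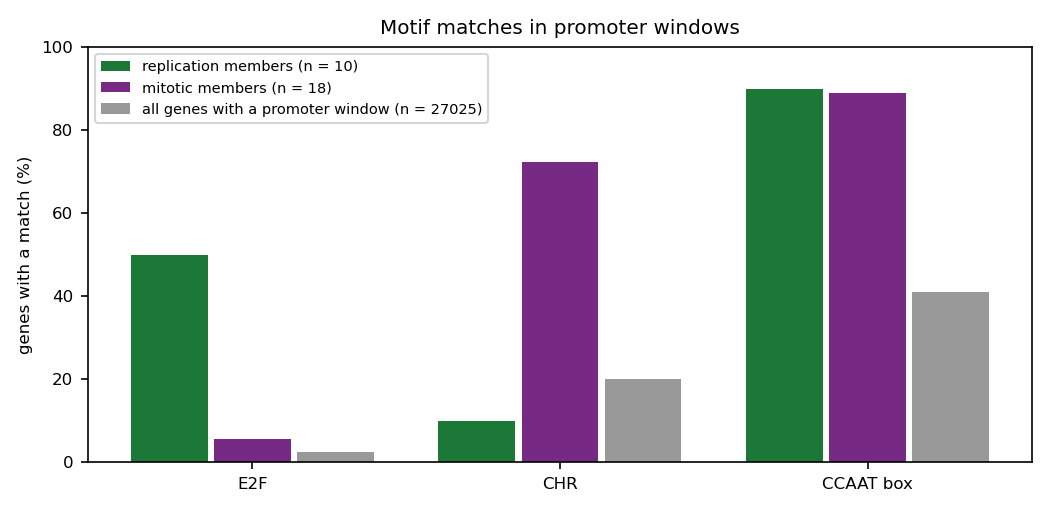
Percent of genes whose promoter window holds a match to each motif, for 10 replication genes, 18 mitotic genes and all 27025 genes with a window. E2F letters are in 5 of 10 replication promoters and the CHR in 13 of 18 mitotic promoters, while the CCAAT box is in 9 of 10 and 16 of 18.

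Replication genes were called higher for 4 of 11 in PG9VN against WT (36.4%), against 11.5% of all genes tested. Their median log2 fold change was 0.37. Mcm3, a subunit of the MCM helicase that unwinds DNA at the fork, had 7.19, 8.56 and 7.27 CPM in PG9VN, 5.32, 4.21 and 4.79 CPM in PG9V and 3.5, 2.47 and 3.49 CPM in WT. Its 3 genotypes did not overlap, with PG9V in between. It rose in PG9VN over WT (log2 fold change 1.28 ± 0.18, adjusted p = 0.00146) and was called under all 18 alternatives. The other helicase subunits moved less, and only Mcm7 among them passed. Mcm7, whose promoter holds E2F letters, had 16.7, 18.4 and 18.4 CPM in PG9VN, 14.8, 16.8 and 15.5 CPM in PG9V and 13.8, 15.5 and 13.2 CPM in WT. Its PG9VN libraries lay above WT but close to PG9V replicate 2, and its change was small (0.34 ± 0.10, adjusted p = 0.0455). That call was lost in 8 of the 9 fits that left out a library, all but the one without WT replicate 2, and the adjusted p reached 0.181 over all alternatives. Mcm2, Mcm4, Mcm5 and Mcm6 had log2 fold changes of 0.49, 0.29, 0.37 and 0.58, with adjusted p of 0.0757, 0.101, 0.0985 and 0.144.

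Rrm2 encodes the small subunit of ribonucleotide reductase, which makes deoxynucleotides and is known to be made mainly in S phase. It had 2.59, 3.02 and 3.41 CPM in PG9VN, 1.56, 1.72 and 1.02 CPM in PG9V and 1.32, 1.29 and 1.09 CPM in WT. All PG9VN libraries were above all others, while PG9V and WT overlapped. The rise over WT was 1.29 ± 0.24, adjusted p = 0.00609. Rrm1, the large subunit of the same enzyme, which is less tied to S phase, had 23.7, 20.8 and 23.1 CPM in PG9VN, 23.2, 22.3 and 23.2 CPM in PG9V and 23.2, 25 and 23.1 CPM in WT and did not pass (-0.08 ± 0.08, adjusted p = 0.557). Tyms, thymidylate synthase, likewise did not pass (-0.09 ± 0.14, adjusted p = 0.713), and its 3 PG9VN libraries lay below the 3 PG9V libraries.

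Uhrf1, which keeps DNA methylation in step with replication, had 3.52, 2.84 and 4.21 CPM in PG9VN, 1.74, 2.29 and 1.56 CPM in PG9V and 1.59, 1.59 and 1.09 CPM in WT. Its PG9VN libraries lay above all others, and the rise over WT was 1.31 ± 0.25, adjusted p = 0.00674. When only the most abundant transcript of each gene was used, its fold change was 0.44 and the call was lost (adjusted p = 0.841). That transcript held 53.4% of the gene's estimated counts in PG9VN, 27.7% in PG9V and 95.8% in WT. Pcna, the sliding clamp of the replication fork and also a repair factor, had the highest level per transcript length of the 40 genes in WT (23.1 CPM per kb). It had 37.6, 54.6 and 37.1 CPM in PG9VN, 36.3, 38.8 and 36 CPM in PG9V and 33.4, 35.2 and 32.5 CPM in WT. PG9VN replicate 2 was the high library, and the difference did not pass (0.36 ± 0.14, adjusted p = 0.115).

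Mitotic genes were called higher for 8 of 22 in PG9VN against WT (36.4%), against 11.5% of all genes tested, with a median of 0.58. PG9VN libraries lay all above WT for 12 of the 22, against 20.3% of all genes tested. Without Bub1, which the low-count filter kept through PG9VN alone, 7 of 21 were called (33.3%). Mki67, a coat protein of mitotic chromosomes and the usual marker of cycling cells, had 8.7, 6.86 and 10.8 CPM in PG9VN, 3.09, 4.54 and 3.61 CPM in PG9V and 3.29, 2.91 and 2.12 CPM in WT. Every PG9VN library was above every other library, and PG9V overlapped WT. Top2a, the topoisomerase that untangles sister chromosomes, had 6.76, 5.86 and 11 CPM in PG9VN, 2.63, 3.45 and 3.64 CPM in PG9V and 3.05, 3.52 and 2.45 CPM in WT. Its PG9VN replicate 3 was far above the rest, yet the other PG9VN libraries also exceeded every PG9V and WT library. The Top2a rise over WT was 1.39 ± 0.26, adjusted p = 0.00701, and the adjusted p was 0.0561 without WT replicate 1 and PG9V replicate 2 together.

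Cdk1, the kinase that drives entry into mitosis, had 1.83, 2.18 and 2.12 CPM in PG9VN, 0.497, 0.828 and 0.766 CPM in PG9V and 0.519, 0.44 and 0.335 CPM in WT. Its PG9VN libraries lay close together and above every other library, and the log2 fold change over WT was the largest of the 40 genes. Ccnb1, the cyclin B1 partner of Cdk1, had 1.33, 0.996 and 1.7 CPM in PG9VN, 0.39, 1.06 and 0.67 CPM in PG9V and 0.415, 0.474 and 0.251 CPM in WT. PG9VN lay above WT, but PG9V replicate 2 reached into the PG9VN range. The rise was 1.83 ± 0.42, adjusted p = 0.0159. One transcript held 65.8% of Ccnb1 estimated counts in PG9VN, 54.0% in PG9V and 6.8% in WT. Ccnb2, cyclin B2, did not pass (0.06 ± 0.35, adjusted p = 0.922), with WT replicate 2 the highest library of all at 2.13 CPM. Ccna2, cyclin A2, was at 0.58 (adjusted p = 0.0965).

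Cdc20 activates the anaphase-promoting complex that ends metaphase. It had 1.37, 1.92 and 2.12 CPM in PG9VN, 1.31, 1.13 and 1.18 CPM in PG9V and 0.9, 0.947 and 1.06 CPM in WT, with all PG9VN libraries above WT and PG9V in between, and rose by a smaller step (0.89 ± 0.23, adjusted p = 0.0257). Bub1, a kinase of the spindle checkpoint, had 0.467, 0.479 and 0.904 CPM in PG9VN, 0.142, 0.331 and 0.223 CPM in PG9V and 0.312, 0.135 and 0.112 CPM in WT. It is the rarest of the 40 per transcript length, and it passed the low-count filter through PG9VN libraries alone. Its call (1.74 ± 0.50, adjusted p = 0.0409) therefore depends on that filter, since keeping a gene through the group where it is high favours a difference. Its partner Bub1b had 4.1, 5.27 and 6.4 CPM in PG9VN, 5.08, 3.84 and 2.9 CPM in PG9V and 0.969, 2.37 and 4.13 CPM in WT, spread widely within WT, and did not pass (1.07 ± 0.44, adjusted p = 0.128). Of these calls, Cdc20 was lost without PG9VN replicate 3 or any 1 of the WT libraries, and Bub1 without PG9VN replicate 3, WT replicate 2, WT replicate 3 or any 1 of the PG9V libraries.

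Aurkb, the kinase of the chromosomal passenger complex, had 0.826, 0.738 and 1.18 CPM in PG9VN, 0.284, 0.762 and 0.542 CPM in PG9V and 0.242, 0.338 and 0.195 CPM in WT. PG9VN lay above WT and PG9V spanned the gap (1.82 ± 0.42, adjusted p = 0.0162 for PG9VN over WT). Only 2 PG9V libraries and 1 WT library of Aurkb were past the filter's 0.343 CPM. The calls of Aurkb and Ccnb1 were lost without PG9VN replicate 3, WT replicate 1 or WT replicate 3, with adjusted p up to 0.0728 and 0.0686. The other passenger subunits did not pass, with Birc5 (survivin) at 0.09 ± 0.26, adjusted p = 0.846 and Cdca8 (borealin) at 0.16 ± 0.20, adjusted p = 0.621. Aurka, the kinase of the spindle poles, was at 0.29 and Plk1, which acts throughout mitosis, at 0.46, with adjusted p of 0.433 and 0.238.

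Cenpe, a kinetochore motor that aligns chromosomes, had 3.13, 2.77 and 3.16 CPM in PG9VN, 1.6, 1.66 and 2.14 CPM in PG9V and 1.42, 1.12 and 1.56 CPM in WT. Its 3 genotypes did not overlap, and the rise over WT was 1.14 ± 0.21, adjusted p = 0.00554. The spindle motor Kif11 had 3.59, 2.95 and 3.96 CPM in PG9VN, 1.81, 2.25 and 1.66 CPM in PG9V and 2.84, 2.33 and 1.73 CPM in WT and the spindle assembly factor Tpx2 had 3.81, 4.61 and 5.04 CPM in PG9VN, 2.45, 2.92 and 2.36 CPM in PG9V and 3.5, 2.91 and 2.62 CPM in WT. In both, PG9VN lay above WT and PG9V, but the adjusted p against WT was 0.0969 for Kif11 and 0.0569 for Tpx2. The cytokinesis motor Kif20a had the same arrangement (log2 fold change 0.56, adjusted p = 0.084). The remaining mitotic genes did not pass. They were Kif23 (0.17) and Ect2 (0.58), which act in cytokinesis, the spindle protein Nusap1 (-0.15) and the centromere protein Cenpf (0.49), on the log2 scale.

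**Figure D3:**
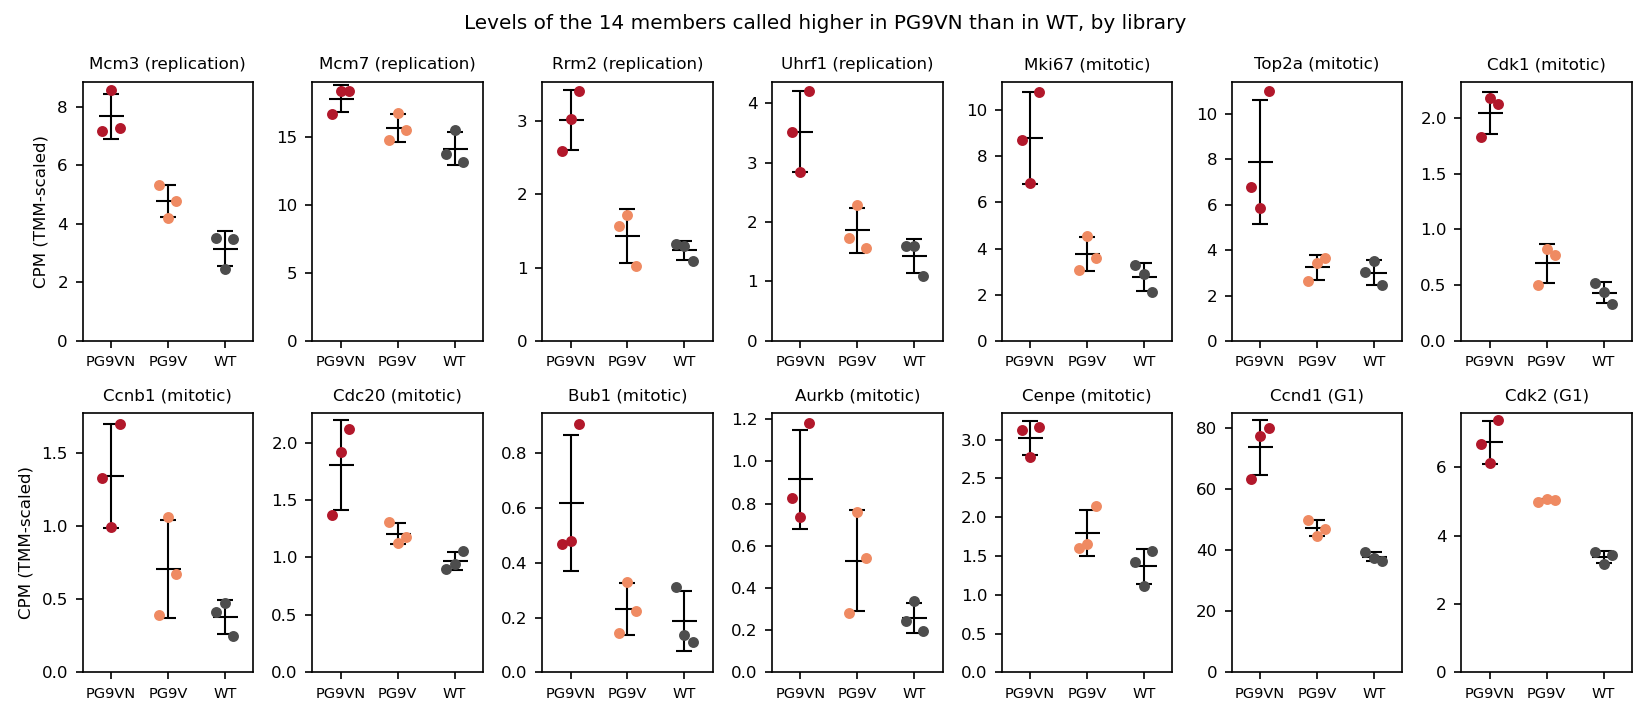
Level in each library (CPM on TMM-scaled library sizes) of the 14 genes called higher in PG9VN than in WT, in PG9VN, PG9V and WT from left to right. Points are libraries, and the bars are the mean ± SD of 3 mice. In all 14 panels the PG9VN points lie above the WT points, and in the panels of Mcm7, Ccnb1 and Aurkb the PG9V points overlap both.

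Among the G1 and checkpoint regulators 2 of 7 rose in PG9VN over WT (28.6%), where 11.5% of all genes tested were called higher. Their median was 0.32. Ccnd1, cyclin D1, links growth signals to the cycle and is abundant in brain. It had 63.3, 77.2 and 80 CPM in PG9VN, 49.8, 44.6 and 46.7 CPM in PG9V and 39.4, 37.5 and 36.5 CPM in WT. The 3 genotypes did not overlap, and Ccnd1 had the smallest adjusted p of the 40 genes (0.96 ± 0.10, adjusted p = 0.000274). Cdk2, the kinase partner of cyclins E and A, had 6.68, 6.12 and 7.37 CPM in PG9VN, 4.97, 5.07 and 5.04 CPM in PG9V and 3.53, 3.18 and 3.43 CPM in WT. It too was ordered without overlap (0.99 ± 0.13, adjusted p = 0.00107), but with the most abundant transcript alone its fold change was 0.35 (adjusted p = 0.646), and that transcript held 30.0% of its estimated counts in PG9VN, 48.4% in PG9V and 46.8% in WT. The cyclins E, Ccne1 (-0.27) and Ccne2 (-0.12), did not pass (adjusted p = 0.314 and 0.744).

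Ccnd2, cyclin D2, had 45.7, 69.5 and 55.7 CPM in PG9VN, 52.3, 42.8 and 46.8 CPM in PG9V and 43.8, 43.1 and 49.6 CPM in WT, with PG9VN replicate 1 inside the WT range, and did not pass (0.32 ± 0.15, adjusted p = 0.159). E2f1, the activator of replication genes, had 5.71, 8.67 and 6.15 CPM in PG9VN, 5.72, 4.94 and 5.62 CPM in PG9V and 7.17, 5.11 and 6.11 CPM in WT. PG9VN replicate 2 was its highest library and the other 2 lay within WT (0.16 ± 0.19, adjusted p = 0.611). Cdkn1a (p21), the kinase inhibitor induced by p53, had 30.2, 50.3 and 34.7 CPM in PG9VN, 14.3, 23.9 and 13.7 CPM in PG9V and 16.9, 53.2 and 10.4 CPM in WT. WT replicate 2 was the highest library of all, while the other WT libraries were below every PG9VN library. The difference did not pass (0.52 ± 0.54, adjusted p = 0.552), and without WT replicate 2 it did (log2 fold change 1.497, adjusted p = 0.0301).

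In PG9V against WT, edgeR's quasi-likelihood test called 0 of 40 higher and 0 lower, where 1.62% of all genes tested were called higher and 0.149% lower. At an unadjusted p below 0.05 it gave 5 higher (Mcm3, Cdk1, Aurkb, Ccnd1 and Cdk2) and 0 lower, against 8.97% and 5.18% of all genes tested. DESeq2 called 1, Cdk2, which edgeR also called without PG9VN replicate 2. For 7 genes the PG9V libraries all lay above WT and for 0 below, against 16.5% and 13.2% of all genes tested, and the median was 0.14, against 0.01 over all genes tested. The genes nearest to a call by edgeR were Cdk2 (0.57 ± 0.13, adjusted p = 0.074), Mcm3 (0.60 ± 0.18, adjusted p = 0.17) and Ccnd1 (0.32 ± 0.10, adjusted p = 0.182).

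PG9VN was then set directly against PG9V, with the PG9VN libraries that also entered the comparison with WT. Rrm2, Mki67, Top2a, Cdk1 and Ccnd1 rose, 5 of 40, and 0 fell, where 2.72% of all genes tested were called higher and 0.667% lower. Their log2 fold changes were 1.07 ± 0.24, adjusted p = 0.0428 for Rrm2, 1.23 ± 0.24, adjusted p = 0.0274 for Mki67 and 1.28 ± 0.26, adjusted p = 0.0331 for Top2a. Cdk1 was at 1.54 ± 0.26, adjusted p = 0.0186 and Ccnd1 at 0.64 ± 0.10, adjusted p = 0.0142. For 20 genes PG9VN lay wholly above PG9V, against 12.2% of all genes tested, and for 1, Tyms, wholly below, against 8.93%. At an unadjusted p below 0.05 the counts were 15 higher and 0 lower, against 9.94% and 6.17% of all genes tested. The median was 0.49, against 0.01 over all genes tested. In all 5 genes called, every PG9VN library lay above every PG9V library. Yet the number of calls changed with the libraries in the fit. The count was 0 without PG9VN replicate 3, without PG9V replicate 1 or without PG9V replicate 3, and 8 without PG9VN replicate 2. Without PG9V replicate 2, WT replicate 1 or WT replicate 3 it was 3, and it was 11 by DESeq2 and 0 when the fit held these genotypes alone.

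Replication and mitotic genes were contrasted as classes. In PG9VN against WT 4 of 11 replication genes were called (36.4%), and 7 of 21 mitotic genes (33.3%) when Bub1, kept by the filter through PG9VN alone, is left aside. Over all genes tested 11.5% were called higher. Per library, the mean deviation from the WT mean in log2(CPM + 0.5) was 0.43, 0.53 and 0.51 for replication genes in PG9VN, 0.17, 0.26 and 0.13 in PG9V, and 0.06, -0.04 and -0.02 in WT. The replication class was therefore ordered without overlap. For mitotic genes it was 0.50, 0.45 and 0.84 in PG9VN, -0.05, 0.24 and 0.09 in PG9V, and 0.01, 0.09 and -0.10 in WT. Mitotic PG9VN libraries lay above all others, and PG9V overlapped WT. Mitotic minus replication deviation was 0.06, -0.08 and 0.32 in PG9VN, -0.21, -0.02 and -0.03 in PG9V, and -0.05, 0.13 and -0.08 in WT, so the genotypes overlapped and no difference between the classes was seen beyond the spread of mice. Low levels shrink these values through the pseudocount, and mitotic genes were the rarer class, with a WT median of 0.73 CPM per kb of transcript against 2.71 for replication genes and 6.22 for the regulators.

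In both mutant genotypes most mitotic genes were highest in the same mouse. PG9VN replicate 3 had the highest PG9VN level for 20 of 22 mitotic genes and for 3 of 11 replication genes, where PG9VN replicate 2 was highest for 6. PG9V replicate 2 was the highest PG9V library for 15 of 22 mitotic genes. In WT the highest library was divided, at 8, 11 and 3 of the 22 for replicates 1, 2 and 3. Without PG9VN replicate 3 the mitotic count against WT was 4, without WT replicate 1 or WT replicate 3 it was 5, without WT replicate 1 and PG9V replicate 2 together it was 4, and without PG9VN replicate 2 it was 9. The replication count stayed at 3 or 4 in these fits. Ordered by genotype means, 9 of 11 replication genes and 11 of 22 mitotic genes had PG9VN highest and WT lowest, and PG9VN was highest for 9 of 11 and 20 of 22.

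**Figure D4:**
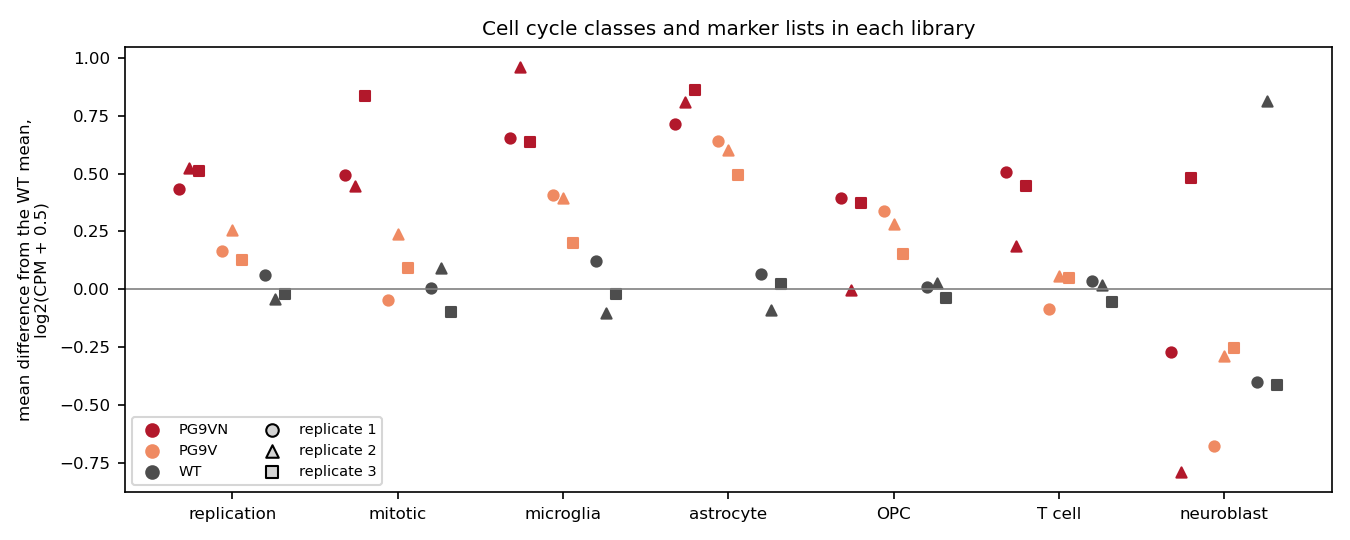
Mean difference from the WT mean in log2(CPM + 0.5), per library, for the replication and mitotic classes and 5 lists of cell type markers. Colours mark PG9VN, PG9V and WT, and symbols mark the mouse within its genotype. PG9VN replicate 3 is the highest mitotic value at 0.84, PG9VN replicate 2 is the highest microglial value at 0.96, and the OPC value of PG9VN replicate 2 is -0.005, inside the WT range.

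Markers of microglia, astrocytes and OPC were also measured. Of 10 microglia markers 7 rose in PG9VN over WT and 0 fell, where 11.5% of all genes tested were called higher and 7.22% lower. The microglia list summed to 696 to 856 CPM in PG9VN, 436 to 524 CPM in PG9V and 320 to 366 CPM in WT. Of 10 astrocyte markers 7 rose, with sums of 7835 to 9708 CPM in PG9VN, 6281 to 7177 CPM in PG9V and 4568 to 4893 CPM in WT. Of 8 OPC markers 4 rose, with sums of 294 to 394 CPM in PG9VN, 329 to 375 CPM in PG9V and 299 to 307 CPM in WT. In PG9V over WT 2 microglia, 4 astrocyte and 0 OPC markers were called higher, where 1.62% of all genes tested were. In mean deviation from WT, PG9VN replicates 1, 2 and 3 stood at 0.65, 0.96 and 0.64 for the microglia list, 0.72, 0.81 and 0.86 for the astrocyte list and 0.40, -0.005 and 0.37 for the OPC list. Replicate 3, highest for the mitotic genes, was also highest for the astrocyte list, and replicate 2, lowest for the mitotic genes, was lowest for the OPC list and highest for the microglia list. The neuroblast and progenitor list stood at -0.27, -0.79 and 0.48 in these PG9VN libraries, in the order of the mitotic genes. In WT, replicate 2 was highest for both that list (0.81) and the mitotic genes (0.09). In PG9V, replicate 3 was highest for that list (-0.26) and replicate 2 for the mitotic genes (0.24). The part of these cells in the cell cycle result was not tested.

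Markers of other cell types and of brain regions were measured in the same way. Of 8 T cell markers 7 were tested and 2 rose (Cd3g and Cd8b1), both kept by the low-count filter only with their PG9VN libraries. The T cell list summed to 7.19 to 10.1 CPM in PG9VN, 5.43 to 6.57 CPM in PG9V and 5.77 to 6.54 CPM in WT. Of 8 neuroblast and progenitor markers 0 passed by edgeR, with sums of 92.9 to 184 CPM in PG9VN, 100 to 118 CPM in PG9V and 116 to 252 CPM in WT. Of 5 B cell markers 4 were tested and 1 rose, Cd79b, kept by the filter only with its PG9VN libraries. Of 6 monocyte and neutrophil markers 2 were tested and 0 passed. That list summed to 4.24 to 5.15 CPM in PG9VN, 2.63 to 3.15 CPM in PG9V and 1.97 to 3.11 CPM in WT, with PG9VN above both. Of 8 endothelial markers 1 was called higher (12.5%) and 1 lower, near the 11.5% and 7.22% of all genes tested, and of 6 mural markers 2 were higher. Of 4 ependymal markers 1 rose (Foxj1), with sums of 45.5 to 52.8 CPM in PG9VN, 24.8 to 39.8 CPM in PG9V and 21.9 to 34.6 CPM in WT, which put PG9VN above both. Of 5 erythroid markers 0 passed by edgeR and 1 had an unadjusted p below 0.05. All 5 had their PG9VN libraries above the WT libraries, where 20.3% of all genes tested did, and the list summed to 56.5 to 73.9 CPM in PG9VN, 15.6 to 67.0 CPM in PG9V and 15.3 to 51.8 CPM in WT. Of 8 oligodendrocyte and 6 choroid plexus and meningeal markers 0 passed by edgeR and 0 had an unadjusted p below 0.05. Neuronal markers fell for 2 of 9, thalamic markers for 4 of 5 and midbrain markers for 3 of 8, and the hypothalamic, cerebellar and cortical lists had 0 called. The midbrain list summed to 13.7 to 97.3 CPM in PG9VN, 102 to 147 CPM in PG9V and 133 to 142 CPM in WT. The thalamic list summed to 123 to 187 CPM in PG9VN, 291 to 302 CPM in PG9V and 385 to 486 CPM in WT. In both, every PG9VN library lay below every other library, so regional markers differed along with genotype. The part of these lists in the result was not tested.

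Further cell cycle genes, listed by textbook role, gave the wider picture in PG9VN against WT. Of 33 other replication genes 4 rose and 0 fell (12.1% higher), with a median of 0.18. They were Chaf1b, a histone chaperone of the fork (1.05 ± 0.23, adjusted p = 0.0136), Dbf4, the activator of Cdc7 (0.69 ± 0.16, adjusted p = 0.0189), Gins2 of the helicase complex (1.07 ± 0.32, adjusted p = 0.0468) and Pole, the leading-strand polymerase (0.68 ± 0.21, adjusted p = 0.0472). That share is close to the 11.5% of all genes tested, and leaving out a library lowered the count to 2 (PG9VN replicate 3, PG9V replicate 1 or WT replicate 2), 1 (WT replicate 3) or 0 (WT replicate 1). Of 44 other mitotic genes tested 16 rose and 2 fell (36.4% higher), with a median of 0.57. The summed level of this list ran the other way, at 407 to 440 CPM in PG9VN, 465 to 486 CPM in PG9V and 496 to 551 CPM in WT. Without the 3 that the low-count filter kept only with their PG9VN libraries, 14 of 41 rose (34.1%). One of those 3 was Kif18b, a microtubule motor, so its call carries the same limit as that of Bub1. Kif18b averaged 0.893 ± 0.420 CPM in PG9VN, 0.302 ± 0.0468 CPM in PG9V and 0.161 ± 0.0407 CPM in WT (2.45 ± 0.45, adjusted p = 0.00626). The kinase Pbk was at 2.11 ± 0.37 (adjusted p = 0.00491), Iqgap3 at 1.44 ± 0.22 (adjusted p = 0.00245) and the kinetochore protein Nuf2 at 1.03 ± 0.18 (adjusted p = 0.00495). The 2 that fell were Wee1, an inhibitory kinase of Cdk1 (-0.55, adjusted p = 0.00994), and Cit, a cytokinesis kinase that neurons also express (-0.97, adjusted p = 0.029), named after their values were seen. The 18 mitotic calls became 7 without PG9VN replicate 3, 10 without WT replicate 1 and 8 without WT replicate 2 or WT replicate 3. In PG9V against WT edgeR called 0 of both lists, and an unadjusted p below 0.05 held for 3 replication genes, all higher, and for 9 mitotic genes, 8 of them higher, where 8.97% of all genes tested were higher and 5.18% lower at that p. DESeq2 called 0 and 1, and without PG9VN replicate 2 edgeR called 0 and 3.

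Of 27 other regulators of G1 6 rose and 1 fell in PG9VN against WT (22.2% higher), with a median of 0.12. Over all genes tested 11.5% were called higher and 7.22% lower. Inhibitors of cyclin D kinases were among the regulators that rose. Cdkn2a, which encodes p16 and p19Arf, had 53, 79 and 88 counts in PG9VN, 11, 27 and 3 counts in PG9V, and 2, 2 and 1 counts in WT. Every PG9VN library was above every other library, and no fold change is given because WT was at the floor (adjusted p = 0.00112). It too passed the low-count filter only with its PG9VN libraries, and without it 5 of 26 rose (19.2%). Cdkn2b averaged 1.497 ± 0.421 CPM in PG9VN, 0.668 ± 0.0318 CPM in PG9V and 0.522 ± 0.161 CPM in WT (1.52 ± 0.31, adjusted p = 0.00923). Cdkn2c averaged 3.52 ± 0.614 CPM in PG9VN, 2.37 ± 0.117 CPM in PG9V and 1.57 ± 0.0777 CPM in WT (1.17 ± 0.18, adjusted p = 0.00252). Cdk4, the kinase these proteins bind, rose by 0.51 ± 0.08 on the log2 scale (adjusted p = 0.00328). In PG9V against WT edgeR called 0 of 27, and 4 had an unadjusted p below 0.05, 3 of them higher, where all genes tested gave 8.97% higher and 5.18% lower, while DESeq2 called 1, as edgeR did without PG9V replicate 3.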

How the data were processed

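The 9 libraries, 3 per genotype, were grouped by their genotype label. They are stranded and poly(A)-selected, per the labels' protocols. The table the authors deposited holds raw-scale estimated counts for each transcript (59.6% of them differ from a whole number by more than 0.001). Per the submitters' processing notes, Trimmomatic 0.33, FastQC, HISAT2 2.0.5, kallisto 0.43.1 and build mm39 were named. The tool that made the counts and its settings are not given in the sources used here. Estimated counts divide reads among similar transcripts, so the share of a transcript is less certain than a gene's sum. The 2 Kif11 transcripts, for example, hold equal estimates in every library.

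The 105129 transcripts were summed per gene symbol (33641 symbols) and rounded. Symbols that spreadsheet software had turned into date numbers (24, on 177 transcripts) were resolved through transcript identifiers, and 4 transcripts were left out. The test had been planned on gene counts. Genes were filtered with filterByExpr by genotype (minimum count 10), scaled by TMM and tested with edgeR 4.0.16 in R 4.3.3 (robust quasi-likelihood test over all 9 libraries, with a coefficient for each genotype). P-values were adjusted by Benjamini-Hochberg over 17398 genes and called at 0.05. The method was tested on simulated data. With 3 mice a group, these p-values weigh a difference between genotypes against the spread between mice. That spread was estimated from all 9 libraries, with information shared across genes.

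The members and lists were chosen with earlier results of these data known, so no p-value is given for a list. Genes named with values in every library are the members called in any comparison and Pcna, Ccnd2, E2f1 and Cdkn1a. Values in every library are also given for Rrm1, Bub1b, Kif11 and Tpx2, chosen after their values were seen. Up to 4 genes with the smallest p are named in each further list. Levels per kb divide each transcript's CPM by its length in the reference annotation. Promoter windows are RefSeq's, of GRCm38.p6, an earlier build than that of the deposited table, and no coordinates were converted. Alternatives were DESeq2 1.42.0, limma-voom (limma 3.58.1), other scalings and filters, fits without single libraries, and single transcripts. A few genes are not reported here.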

Additional observations from a re-analysis of the deposited data

How the results depend on the processing

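No paired analysis was possible because the replicate numbers only follow accession order. The cell cycle genes called kept their direction under the 18 alternatives, as did the median of the 40 in each of the 3 comparisons (0.445 to 0.587 for PG9VN against WT, 0.067 to 0.202 for PG9V against WT and 0.339 to 0.581 for PG9VN against PG9V). Of the 14 genes called in PG9VN against WT, 6 were called under every alternative and 9 in every fit without 1 library. Counts of calls moved more, and the cause was not tested.

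In fits without single libraries, calls in PG9VN against WT ranged from 1832 to 4379 over all genes, 9 to 15 for the cell cycle genes, 4 to 9 for mitotic, 3 to 4 for replication and 2 to 3 for G1 genes. In the further lists they ranged from 0 to 5 (replication), 7 to 22 (mitotic), 5 to 8 (G1), 5 to 9 (p53 targets) and 0 to 2 (DNA repair). Those in PG9V against WT ranged from 109 to 889 over all genes, 0 to 1 for the cell cycle genes, for their G1 class, for the further G1 list and for p53 targets, 0 to 3 for further mitotic genes and 3 to 6 for growth signals. In PG9VN against PG9V they ranged from 19 to 1120 over all genes, 0 to 8 for the cell cycle genes, 0 to 2 for replication, 0 to 5 for mitotic and 0 to 1 for G1 genes.

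Without WT replicate 1 and PG9V replicate 2 together, PG9VN against WT gave 1332 genes, 9 cell cycle genes, 4 mitotic genes, and 0 further replication, 7 further mitotic, 4 further G1, 4 p53 and 0 repair genes. PG9V against WT gave 77 genes and 1 growth signal gene, and its mitotic median turned to -0.042, from 0.102. PG9VN against PG9V gave 200 genes and 0 cell cycle genes in each class.

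With the most abundant transcript alone, PG9VN against WT gave 9 cell cycle genes, 2 replication and 1 G1, and 0 further replication, 11 further mitotic, 4 p53 and 0 repair genes. PG9V against WT gave 186 genes, 1 further mitotic and 3 growth signal genes, and PG9VN against PG9V gave 309 genes, 3 cell cycle and 1 mitotic. With only the genotypes compared in the fit, PG9VN against WT gave 1943 genes, 1 further replication, 9 further mitotic, 5 p53 and 0 repair genes. PG9V against WT then gave 810 genes, 1 cell cycle gene (Ccnd1), 3 further mitotic, 1 further G1 and 1 p53 gene, and PG9VN against PG9V gave 200 genes and 0 cell cycle genes in each class. DESeq2 gave 2 repair genes in PG9VN against WT, and 766 genes, 1 cell cycle gene (Cdk2), 1 further mitotic and 1 further G1 gene in PG9V against WT. In PG9VN against PG9V it gave 1233 genes, 11 cell cycle, 3 replication and 7 mitotic genes. Without a low-count filter, PG9VN against WT gave 2 further replication and 0 repair genes, and with a mean of at least 1 CPM it gave 5 mitotic genes, since rare genes leave. The mitotic median in PG9V against WT was -0.025 with that minimum, -0.003 without PG9V replicate 2 and -0.008 without WT replicate 3.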

Other observations

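Genes that stand at the border of the cycle also differed between PG9VN and WT brain. Of 17 p53 target genes 9 rose and 1 fell in PG9VN against WT, with a median log2 fold change of 0.51, where 11.5% of all genes tested were called higher. Bbc3 (Puma), a promoter of cell death, averaged 10.5 ± 1.33 CPM in PG9VN, 6.26 ± 0.575 CPM in PG9V and 4.54 ± 0.520 CPM in WT (SD, n = 3 each; 1.21 ± 0.15 in edgeR, adjusted p = 0.000769). Fas, a death receptor, averaged 6.87 ± 1.44 CPM in PG9VN, 3.70 ± 1.01 CPM in PG9V and 2.57 ± 0.176 CPM in WT (1.42 ± 0.24, adjusted p = 0.00371). Eda2r was at 1.44 ± 0.24 (adjusted p = 0.00386) and Bax at 0.84 ± 0.16 (adjusted p = 0.00612). The list's 10 calls became 5 without WT replicate 3 and 6 without WT replicate 1 or 2 or PG9V replicate 1 or 3. Of 16 DNA repair genes 0 rose and 1 fell, Xrcc2 (-0.48 ± 0.13, adjusted p = 0.0323), and DESeq2 called 2. At an unadjusted p below 0.05, 3 of the 16 were higher and 1 was lower, close to the 18.7% of all genes tested that were higher, with 14.3% lower. The Xrcc2 call was lost without PG9VN replicate 3, PG9V replicate 1, WT replicate 2 or WT replicate 3, and the list had 2 calls without PG9VN replicate 2.

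Genes of microglial growth and lineage signals rose for 8 of 9 in PG9VN against WT, where 11.5% of all genes tested were called higher. In PG9V against WT 5 of 9 rose, where 1.62% of all genes tested were called higher. The medians were 2.04 and 1.07. Csf2rb, a shared cytokine receptor chain, averaged 11.2 ± 1.24 CPM in PG9VN, 3.57 ± 0.474 CPM in PG9V and 1.37 ± 0.192 CPM in WT (3.02 ± 0.18 for PG9VN over WT, adjusted p = 2.65e-05). Spi1 (2.52 ± 0.19), Irf8 (2.22 ± 0.16) and Runx1 (2.32 ± 0.20), transcription factors of the myeloid lineage, rose in PG9VN over WT by edgeR. The PG9V count was 1 without WT replicate 1 and PG9V replicate 2 together, and 3 without PG9V replicate 1 or 2 or any WT library.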
